A study of Mus musculus with 24 samples.

Results

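Fatty acid uptake, oxidation and uncoupling genes were followed in mouse heart over 1 day through a list of 35 genes, of which 32 were measured among 22180 genes with a value. A gene was measured where a probe set of the array named it and no other gene, and probe sets of the same gene were averaged. The hearts came from wild-type C57Bl/6 male mice aged 8 weeks, kept under 12 h of light alternating with 12 h of darkness. Zeitgeber time (ZT) counts hours from lights-on, and hearts were taken every 4 h, at ZT03, ZT07 and ZT11 during the light phase and during darkness at ZT15, ZT19 and ZT23. Each time had 4 arrays, which the labels call biological replicates, and the labels do not say whether hearts were pooled. Acsl1 and Ucp2 were not analysed here, and Cpt1b was left out because its probe set also names 2 other genes. Each value is a log2 difference from the median of that gene over the 24 arrays, so no level is kept, and the tissue could not be checked against the level of its defining markers.

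The heart burns long-chain fatty acids as its main fuel and keeps little of them in store. Lipoprotein lipase (Lpl) frees them from circulating triglyceride, CD36 and the transport protein FATP1 (Slc27a1) help them into the cell, and FABP3 carries them there. They are coupled to coenzyme A, passed through the mitochondrial membranes on carnitine by CPT1, the translocase Slc25a20 and CPT2, and shortened by the enzymes of beta-oxidation. Malonyl-CoA, made by the acetyl-CoA carboxylases Acaca and Acacb and removed by its decarboxylase Mlycd, inhibits CPT1. Many of these genes are known targets of PPAR-alpha, a nuclear receptor that fatty acids activate.

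The members were read in 3 sets. The regulated entry steps are uptake, activation with carnitine transfer, and malonyl-CoA control (12 measured of 14 listed). The core enzymes are the acyl-CoA spiral, its isomerases and reductase, and the electron transfer flavoprotein with its dehydrogenase (15 of 15). Thioesterases, the uncoupling proteins and the droplet protein perilipin 5 form the last set (5 of 6).

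The promoters of 4 of the 5 members with a 24-h rhythm are shown here because those members share a fitted peak in the light. A promoter for the fifth, Angptl4, was not used here. Each sequence holds the 250 bases before the RefSeq start of the gene, 5′ to 3′ on its own strand, in build GRCm38.p6. Capitals mark the nuclear receptor half-site AGGTCA on either strand. The windows are chr7:100472741-100472990 on the plus strand, chr19:3323051-3323300 on the plus strand, chr17:56117549-56117798 on the minus strand, the outer of 2 starts, and chr9:55512244-55512493 on the minus strand.
Ucp3: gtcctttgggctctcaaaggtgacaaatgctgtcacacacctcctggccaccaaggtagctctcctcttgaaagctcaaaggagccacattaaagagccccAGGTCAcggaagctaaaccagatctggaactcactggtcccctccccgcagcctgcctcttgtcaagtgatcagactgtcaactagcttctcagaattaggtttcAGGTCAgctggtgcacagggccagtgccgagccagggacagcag
Cpt1a: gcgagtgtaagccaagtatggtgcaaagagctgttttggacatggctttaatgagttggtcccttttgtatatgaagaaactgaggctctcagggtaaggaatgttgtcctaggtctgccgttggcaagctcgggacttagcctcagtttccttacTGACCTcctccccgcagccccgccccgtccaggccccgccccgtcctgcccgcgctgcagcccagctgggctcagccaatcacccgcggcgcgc
Plin5: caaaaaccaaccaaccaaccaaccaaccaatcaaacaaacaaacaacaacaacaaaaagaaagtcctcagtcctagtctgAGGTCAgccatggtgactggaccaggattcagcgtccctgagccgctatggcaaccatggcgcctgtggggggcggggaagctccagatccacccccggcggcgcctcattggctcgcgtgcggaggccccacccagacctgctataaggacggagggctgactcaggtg
Etfa: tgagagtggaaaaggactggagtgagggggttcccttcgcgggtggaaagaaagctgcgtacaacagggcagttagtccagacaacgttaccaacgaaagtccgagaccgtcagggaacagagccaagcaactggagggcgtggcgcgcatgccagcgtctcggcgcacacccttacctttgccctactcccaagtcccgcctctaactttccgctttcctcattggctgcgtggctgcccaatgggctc
The Ucp3 window held the half-site at 2 places, beginning 149 and 44 bases before the start. Cpt1a held 1, on the other strand at 94 bases, and the outer Plin5 window held 1 at 170 bases. The inner Plin5 window, not shown, and Etfa held none. Of all 32851 promoter windows of this length, 14.0% held it on either strand. Of 29 windows, from 26 of the measured members, 7 held it. They were 3 of the 5 windows of members with a rhythm and 4 of the 24 windows of members without. Those 4 stood at Acadm, Acadvl, Cd36 and Echs1, and whether the half-site goes with the rhythm was not tested. The E-box CACGTG, the sequence bound by CLOCK and BMAL1, stood in 1 of the 29 windows, at an Slc27a1 start, and in 6.02% of all windows. The same Slc27a1 window held the D-box TTANGTAA, found in 2.06% of all windows, and the direct repeat of the half-site with 1 base between its copies (DR1) was in none of the 29 and in 0.0335% of all. These matches describe letters only.

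The Ucp3 window was poor in CpG, with 3 CpG pairs in 250 bases, against 14 in Cpt1a, 11 in the outer Plin5 window and 16 in Etfa. The median was 10 in the 11 windows of entry genes and 14 in the 13 windows of core genes, and 6 in all windows. Core windows ran from 8 to 25 CpG pairs and entry windows from 0 (Acaca) to 22 (Mlycd), so the sets overlapped.

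Over the day, limma called a 24-h rhythm (adjusted p below 0.05 over all genes) in 5 of the 32 measured members, or 15.6%, where 7.61% of all genes were called. They were Cpt1a, Ucp3, Etfa, Angptl4 and Plin5. The fitted peak of all 5 was in the light, and 3.83% of all genes were called with such a peak. Peak and trough of 4 of them differed at least 1.2-fold (5.28% of all genes), and of 3, Ucp3, Angptl4 and Cpt1a, at least 1.5-fold (0.762% of all genes). At an unadjusted p below 0.05 there were 11 members (34.4%) and 19.5% of all genes. The 5 calls were kept in each of 33 alternative analyses, including each of the 24 arrays left out in turn. Other handling of probe sets could not change the values of these 5, since each has 1 probe set. Further members were called in some alternatives, and without ZT15 replicate 1 there were 8 calls, the added ones being Mlycd, Hadha and Etfb. Without that array the calls over all genes rose as well, from 1688 to 1829. Only 1 cycle was sampled, the fold is the fitted peak over the fitted trough, and the effects of light, feeding and the clock cannot be told apart.

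**Figure D1:**
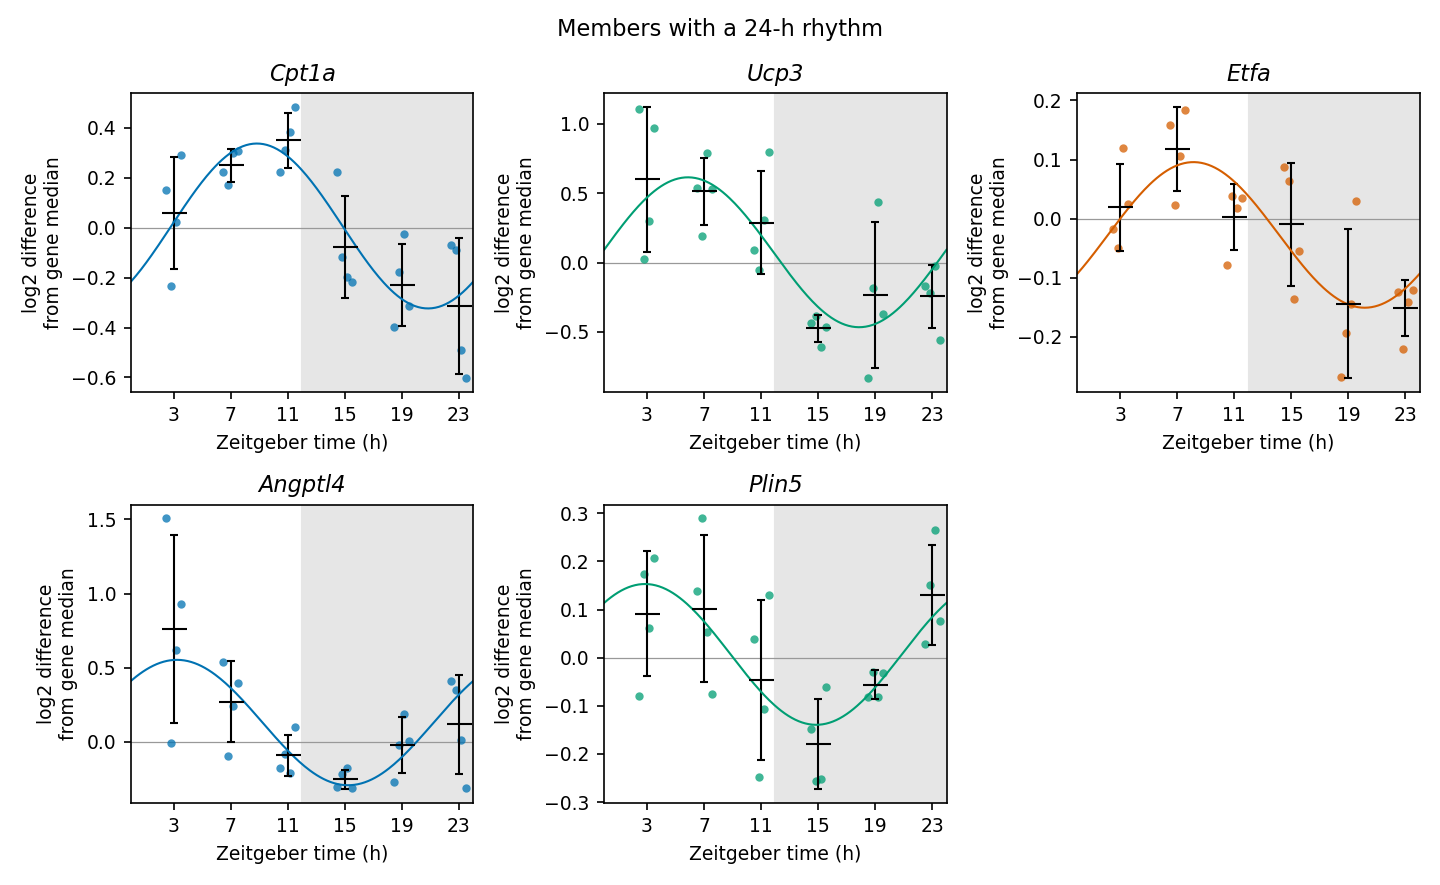
Values of the 5 members with a 24-h rhythm, as log2 differences from the gene's median, against zeitgeber time in h. Points are single arrays, black bars the mean ± SD of 4 arrays, the line is the fitted 24-h cosine, and grey marks the dark. The ZT15 mean lies below the ZT03 mean in each panel, by most in Ucp3 (-0.47 at ZT15 and 0.60 at ZT03).

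The median fitted change was larger among entry steps than among core enzymes. Of 12 entry genes 2 were called, Angptl4 and Cpt1a, of 15 core enzymes 1, Etfa, and of the 5 in the last set 2, Ucp3 and Plin5. These are 16.7% of entry genes, 6.67% of core enzymes and 40.0% of the last set, where 7.61% of all genes were called, so the core share was near that of all genes. The median fitted fold was 1.11 for entry genes, 1.06 for core enzymes and 1.22 for the last set, with 1.06 for all genes. A fold of at least 1.2 was fitted to 4 entry genes, no core enzyme and 3 of the last set, and to 7.36% of all genes. The spread between arrays of the same time moved with the set as well, with a median SD of 0.12 in entry genes, 0.084 in core enzymes, 0.22 in the last set and 0.096 in all genes. No test was made between the sets, since their members were chosen with earlier results known. Without ZT11 replicate 1 the entry calls were 4, with Slc27a1 and Mlycd added, and without ZT15 replicate 1 the core calls were 3. Core calls were 2 without ZT03 replicate 1, ZT07 replicate 2, ZT23 replicate 3 or ZT23 replicate 4, where Etfb was added, and without ZT19 replicate 4, where Hadha was.

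**Figure D2:**
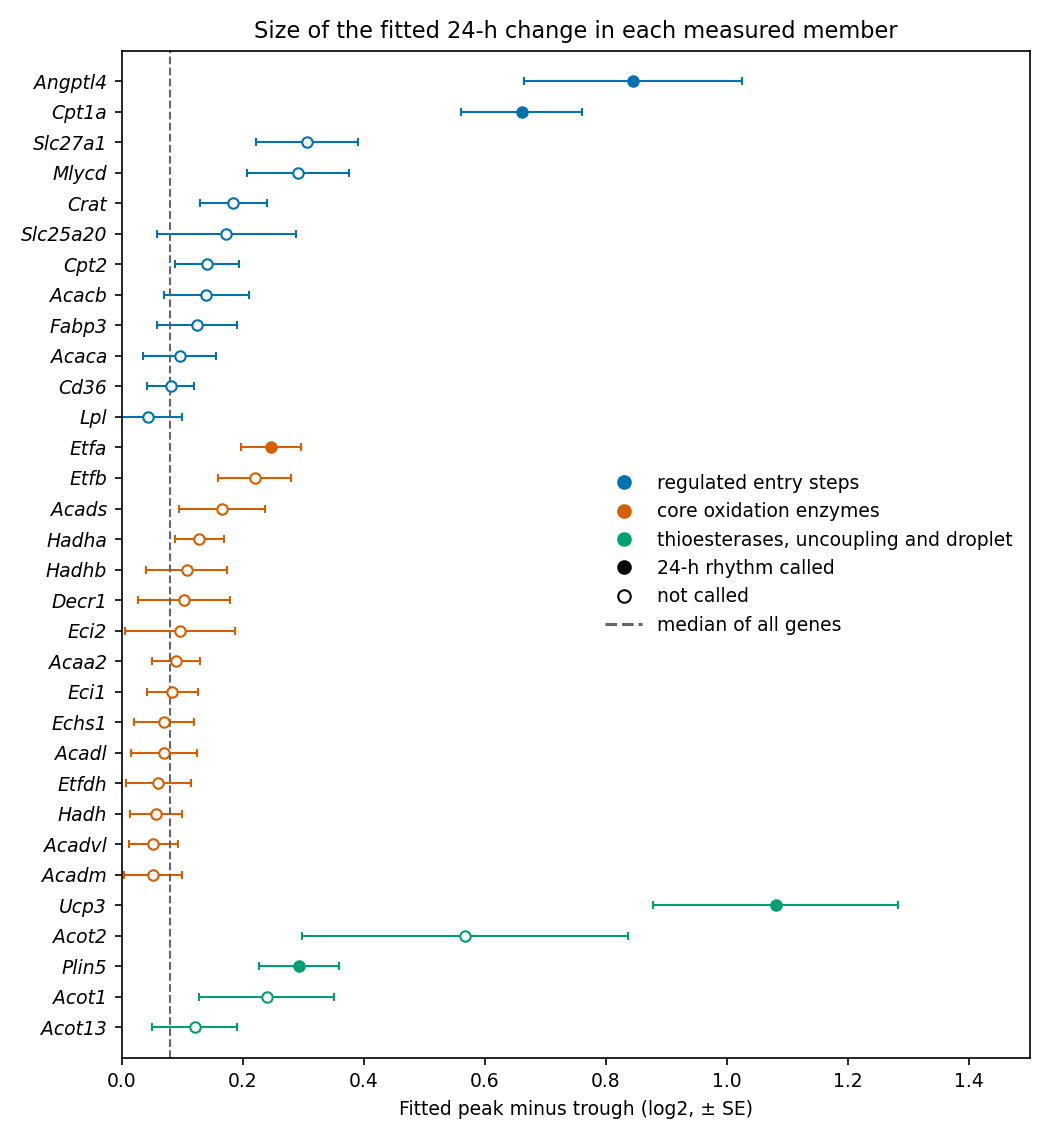
Fitted peak minus trough of each measured member on the log2 scale, with bars of 1 SE, ordered by size within the 3 sets. Filled points had a 24-h rhythm at adjusted p below 0.05, and the dashed line is the median of all genes. All 15 core enzymes lie below 0.26, while Ucp3, Angptl4, Cpt1a and Acot2 lie above 0.5, Acot2 with a wide error.

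Angptl4, the secreted inhibitor of lipoprotein lipase, had its highest values early in the light. Its log2 values were 1.51, -0.0074, 0.62 and 0.93 (ZT03), 0.54, -0.10, 0.24 and 0.40 (ZT07) and -0.17, -0.083, -0.21 and 0.10 (ZT11). During darkness the arrays gave -0.31, -0.22, -0.18 and -0.31 (ZT15), -0.27, -0.020, 0.19 and 0.0074 (ZT19) and 0.41, 0.35, 0.016 and -0.31 (ZT23). Replicate 2 at ZT03 stood at the level of the other times, and all 4 arrays at ZT15 lay below all 4 at ZT07 and at ZT03. The fitted change was 1.80-fold (amplitude 0.42 ± 0.090, SE) with its peak at ZT 3.23 ± 0.815 h (adjusted p = 0.0104, limma). Only 0.293% of all genes had a larger fitted fold. Without ZT03 replicate 1 the amplitude was 0.33, and without ZT03 replicate 2 it was 0.48.

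The target of Angptl4, Lpl, did not pass. Its 24 values lay between -0.20 and 0.20, and its fitted fold of 1.03 was the smallest of the 32 members (adjusted p = 0.913, limma). That fold is of the average of 2 probe sets, which singly had folds of 1.04 and 1.10. Their peaks were at ZT 7.51 and ZT 21.2, neither with a rhythm (adjusted p = 0.815 and adjusted p = 0.660). Cd36, the main fatty acid translocase, ranged from -0.14 to 0.12 (1.06-fold, adjusted p = 0.456), with an SD of 0.062 between arrays of a time, and ZT03 had its highest mean. Fabp3, the heart fatty acid binding protein, ranged from -0.25 to 0.22, both ends at ZT15 (1.09-fold, adjusted p = 0.514). It too is an average of 2 probe sets, with single folds of 1.16 (peak at ZT 10.1) and 1.03 (ZT 6.52). Neither of these had a rhythm (adjusted p = 0.617 and adjusted p = 0.834, limma).

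Slc27a1, a fatty acid transport protein with acyl-CoA synthetase activity, was low around lights-on. It had -0.12, -0.026, -0.19 and -0.011 (ZT03), 0.15, 0.0040, 0.10 and 0.16 (ZT07) and -0.18, 0.091, 0.25 and 0.38 (ZT11). Its night values were 0.10, -0.0025, -0.051 and 0.0025 (ZT15), -0.091, 0.039, 0.086 and 0.20 (ZT19) and -0.0036, -0.40, -0.22 and -0.37 (ZT23). At ZT23 3 of 4 arrays lay below every other array of the series, and ZT11 was the most spread time (SD 0.24). The 24-h fit (1.24-fold, peak at ZT 11.4) did not reach the threshold (adjusted p = 0.0618), and it passed without ZT11 replicate 1 or ZT19 replicate 4 (adjusted p = 0.0108 and adjusted p = 0.0282).

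Cpt1a encodes the liver-type isoform of the carnitine palmitoyltransferase that admits long-chain acyl groups to mitochondria. The other listed isoform, Cpt1b, was left out, so these values do not cover CPT1 as a whole. Cpt1a was high in the second part of the light phase. Its values were 0.15, -0.23, 0.024 and 0.29 (ZT03), 0.22, 0.17, 0.30 and 0.31 (ZT07) and 0.22, 0.31, 0.38 and 0.48 (ZT11). At night Cpt1a had 0.22, -0.12, -0.20 and -0.22 (ZT15), -0.40, -0.18, -0.024 and -0.31 (ZT19) and -0.068, -0.091, -0.49 and -0.60 (ZT23). All 8 arrays at ZT07 and ZT11 were above 11 of the 12 arrays of the dark, and ZT15 replicate 1 was within their range. Mean values were 0.35 ± 0.11 (SD, n = 4) at ZT11 and -0.31 ± 0.27 at ZT23, and the fitted change was 1.58-fold (amplitude 0.33 ± 0.050, SE, adjusted p = 0.000297) with a peak at ZT 8.83 ± 0.576 h.

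The later carnitine steps did not pass. Cpt2, the inner-membrane transferase, had a fitted fold of 1.10 (adjusted p = 0.247), and the carnitine-acylcarnitine translocase Slc25a20 one of 1.13 (adjusted p = 0.676). Values of Cpt2 ranged from -0.19 to 0.24, of Slc25a20 from -0.59 to 0.37 and of Crat from -0.29 to 0.20. Slc25a20 had -0.18, 0.31, 0.31 and 0.37 at ZT19, so 3 of 4 arrays were high there, while at ZT23 it spanned -0.59 to 0.18. Crat, which exchanges acetyl groups between coenzyme A and carnitine, had its highest mean at ZT23 (0.12 ± 0.060, SD, n = 4) and a peak fitted to ZT 20.4 (1.14-fold, adjusted p = 0.0910; adjusted p = 0.0322 without ZT19 replicate 3). Of its 2 probe sets, tested among all probe sets, 1 was higher at night (log2 difference 0.21, adjusted p = 0.0273) and the other was not called (0.047, adjusted p = 0.664).

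Mlycd, the decarboxylase that removes malonyl-CoA, had its highest mean at ZT07. It had -0.069, 0.0028, 0.17 and 0.23 (ZT03), 0.11, 0.28, 0.15 and 0.32 (ZT07) and -0.24, -0.061, 0.20 and 0.30 (ZT11). Night arrays gave 0.14, -0.058, -0.40 and -0.17 (ZT15), -0.0028, -0.12, -0.11 and -0.038 (ZT19) and 0.032, -0.15, -0.023 and 0.0095 (ZT23). All 4 arrays at ZT07 lay above 11 of the 12 arrays of the dark, and the 4 at ZT11 were spread over both sides of 0. The 24-h fit gave 1.22-fold with a peak at ZT 6.07 (adjusted p = 0.0782), and it passed under quantile normalization, with array weights, and without ZT11 replicate 1 or ZT15 replicate 1 (adjusted p down to 0.0310).

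The carboxylases on the other side of that switch were not called. Acaca, the cytosolic isoform, had 0.10, 0.11, 0.11 and 0.019 (ZT03), 0.028, -0.093, 0.15 and 0.031 (ZT07) and -0.17, -0.074, -0.019 and -0.14 (ZT11). Acaca values at night were -0.060, -0.16, 0.10 and 0.026 (ZT15), -0.081, -0.073, 0.094 and 0.23 (ZT19) and 0.089, -0.10, -0.070 and -0.11 (ZT23). All 4 ZT11 values of Acaca lay below all 4 ZT03 values. Acacb, the isoform tied to the mitochondrial surface and held to supply the malonyl-CoA that CPT1 meets, had -0.069, -0.032, 0.056 and 0.19 (ZT03), 0.18, -0.055, 0.016 and 0.12 (ZT07) and -0.12, 0.052, 0.073 and 0.18 (ZT11). Acacb values at night were 0.020, 0.036, -0.088 and -0.14 (ZT15), -0.17, -0.040, 0.013 and 0.25 (ZT19) and -0.013, -0.17, -0.10 and -0.30 (ZT23). At ZT23 all 4 values of Acacb were at or below -0.013. Fitted folds were 1.07 for Acaca (peak at ZT 1.32, adjusted p = 0.643) and 1.10 for Acacb (ZT 8.83, adjusted p = 0.476). The within-array difference of Acaca minus Acacb had a 24-h amplitude of 0.099 (permutation test with 100000 resamples, p = 0.0377, adjusted over 2 pairs p = 0.0755), so a different course of the isoforms did not pass the threshold. The adjusted p was below the threshold without ZT03 replicate 4, ZT07 replicate 3, or ZT15 replicate 1, 3 or 4 (0.0289 to 0.0495).

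In the core spiral, none of 9 enzymes had a 24-h rhythm in limma's test, and 1 (Hadha) passed at an unadjusted p below 0.05. Their fitted folds ran from 1.04 (Acadm, the medium-chain dehydrogenase) to 1.12 (Acads, the short-chain one), with a median of 1.05. Acadvl and Acadl, the very-long-chain and long-chain dehydrogenases, had 1.04 and 1.05, and the adjusted p over the 9 ran from 0.116 (Hadha) to 0.827 (Acadm). Hadh, the dehydrogenase of shorter hydroxyacyl-CoA, the hydratase Echs1 and the thiolase Acaa2 had folds of 1.04, 1.05 and 1.06. Over the 24 arrays Acadvl ranged from -0.10 to 0.15, Acadl from -0.29 to 0.14, Acadm from -0.19 to 0.16 and Acads from -0.21 to 0.36. Hadh ranged from -0.14 to 0.10, Echs1 from -0.15 to 0.16 and Acaa2 from -0.15 to 0.090. SDs between arrays of a time were 0.061 to 0.13 in these 9 genes. In simulated data with the spread of these arrays, 42.0% of rhythms of amplitude 0.1 and 88.0% of amplitude 0.2 were called among 22180 genes. Noise there was normal and independent, and the 200 changed genes were drawn from all genes. These rates are therefore not those of the core enzymes in the real data.

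Eci1 and Eci2, isomerases for unsaturated fatty acids, and the dienoyl-CoA reductase Decr1 were not called either (1.06-, 1.07- and 1.07-fold). Eci1 ranged from -0.14 to 0.14, Eci2 from -0.60 to 0.21 and Decr1 from -0.31 to 0.31. The lowest value of Eci2 (-0.60) and of Decr1 (-0.31) came from ZT15 replicate 1. That array held the lowest value of 9 of the 32 members, and it had the widest spread over all probe sets (SD 0.171, others 0.103 to 0.155). The core enzymes averaged -0.13 on it, the lowest of the 24 arrays.

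**Figure D3:**
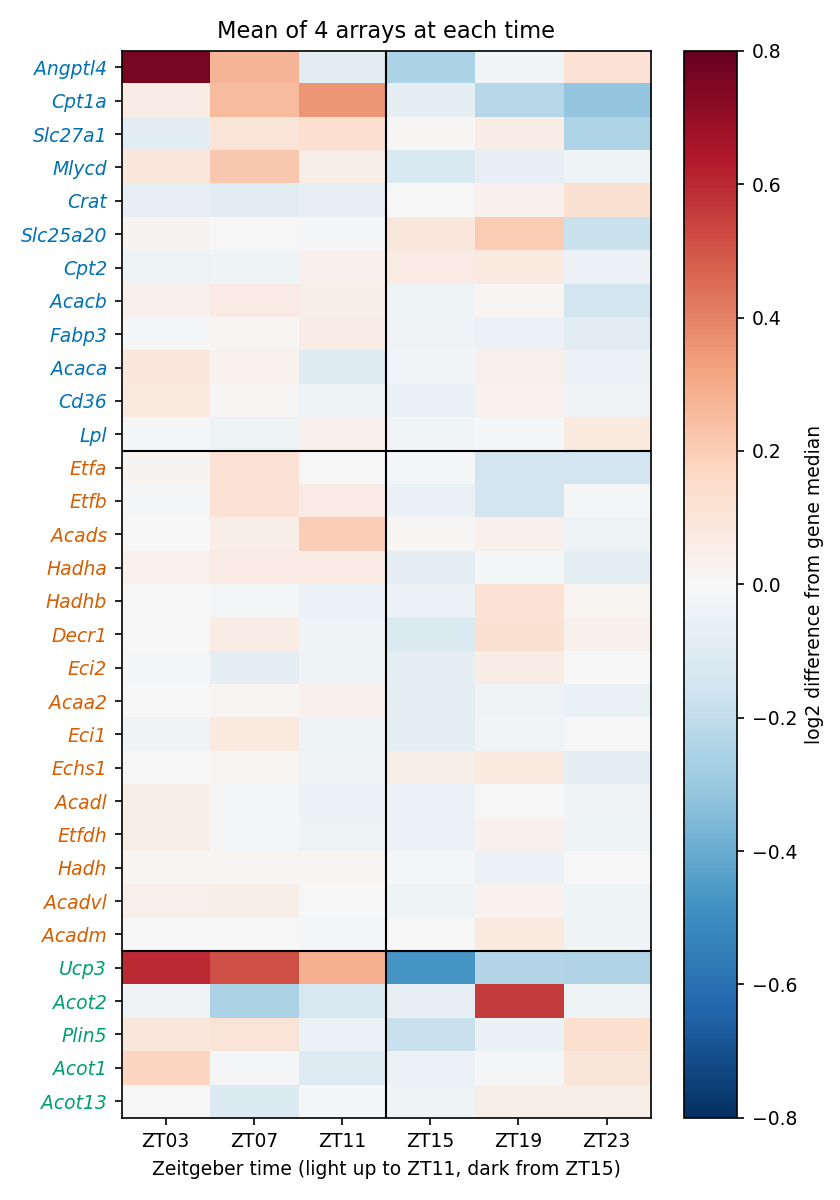
Mean of 4 arrays at each zeitgeber time for the 32 measured members, as log2 differences from the gene's median (colour, ±0.8), with entry genes at the top, core enzymes in the middle and the last set at the bottom. Strong colour stands in Angptl4, Cpt1a, Ucp3 and Acot2, while the means of the 15 core enzymes lie between -0.15 and 0.20.

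Among core genes the largest fitted folds were those of the electron transfer flavoprotein, which takes electrons from the acyl-CoA dehydrogenases. Etfa, its alpha subunit, had -0.018, -0.049, 0.12 and 0.025 (ZT03), 0.16, 0.023, 0.11 and 0.18 (ZT07) and -0.079, 0.038, 0.018 and 0.035 (ZT11). Etfa values at night were 0.088, 0.064, -0.14 and -0.054 (ZT15), -0.27, -0.19, -0.14 and 0.029 (ZT19) and -0.12, -0.22, -0.14 and -0.12 (ZT23). All 4 values at ZT23 and 3 of 4 at ZT19 were below every value of the light. The fitted change was 1.19-fold (amplitude 0.12 ± 0.025, SE, adjusted p = 0.00632) with a peak at ZT 8.14 ± 0.768 h. Etfb, the beta subunit, had -0.16, -0.075, 0.10 and 0.075 (ZT03), 0.11, -0.041, 0.15 and 0.23 (ZT07) and 0.015, 0.11, 0.074 and 0.059 (ZT11). Etfb values at night were 0.11, -0.015, -0.17 and -0.14 (ZT15), -0.15, -0.15, -0.26 and -0.062 (ZT19) and -0.16, -0.11, 0.10 and 0.10 (ZT23). Values of Etfb at ZT19 were all below those at ZT07 and ZT11, and its fit (1.16-fold, peak at ZT 7.42) was just short of the threshold (adjusted p = 0.0571). It passed in 9 of the 33 alternatives (adjusted p down to 0.0188), 5 of them leaving out a single array: ZT03 replicate 1, ZT07 replicate 2, ZT15 replicate 1, ZT23 replicate 3 or ZT23 replicate 4. Etfdh, which passes the electrons on to ubiquinone, ranged from -0.21 to 0.14 with a fold of 1.04 (adjusted p = 0.818).

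Hadha and Hadhb encode the alpha and beta subunits of the mitochondrial trifunctional protein and lie head to head on chromosome 5. Their RefSeq starts are 272 bases apart, and 250 of those bases are shown because both genes read away from them, at chr5:30155003-30155252 (GRCm38.p6), on the strand of Hadhb, with no match to the motifs above.
Hadhb: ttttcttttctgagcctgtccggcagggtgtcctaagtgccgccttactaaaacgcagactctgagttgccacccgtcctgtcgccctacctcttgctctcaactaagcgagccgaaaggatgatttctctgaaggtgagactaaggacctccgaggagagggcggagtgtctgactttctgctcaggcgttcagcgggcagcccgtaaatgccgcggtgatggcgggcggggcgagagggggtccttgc
Hadha ranged in the dark from -0.22 to 0.065 (median -0.039), and in the light from -0.039 to 0.14 (median 0.073). All 12 dark arrays were below the median of the light, and the ranges overlapped. Hadhb ranged in the dark from -0.10 to 0.16 (median 0.0096), and in the light from -0.35 to 0.15 (median -0.0065). Neither had a 24-h rhythm (adjusted p = 0.116 and adjusted p = 0.638), although Hadha passed without ZT15 replicate 1 or ZT19 replicate 4 (adjusted p = 0.0499 and adjusted p = 0.0421), and a difference between the subunits was not tested.

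**Figure D4:**
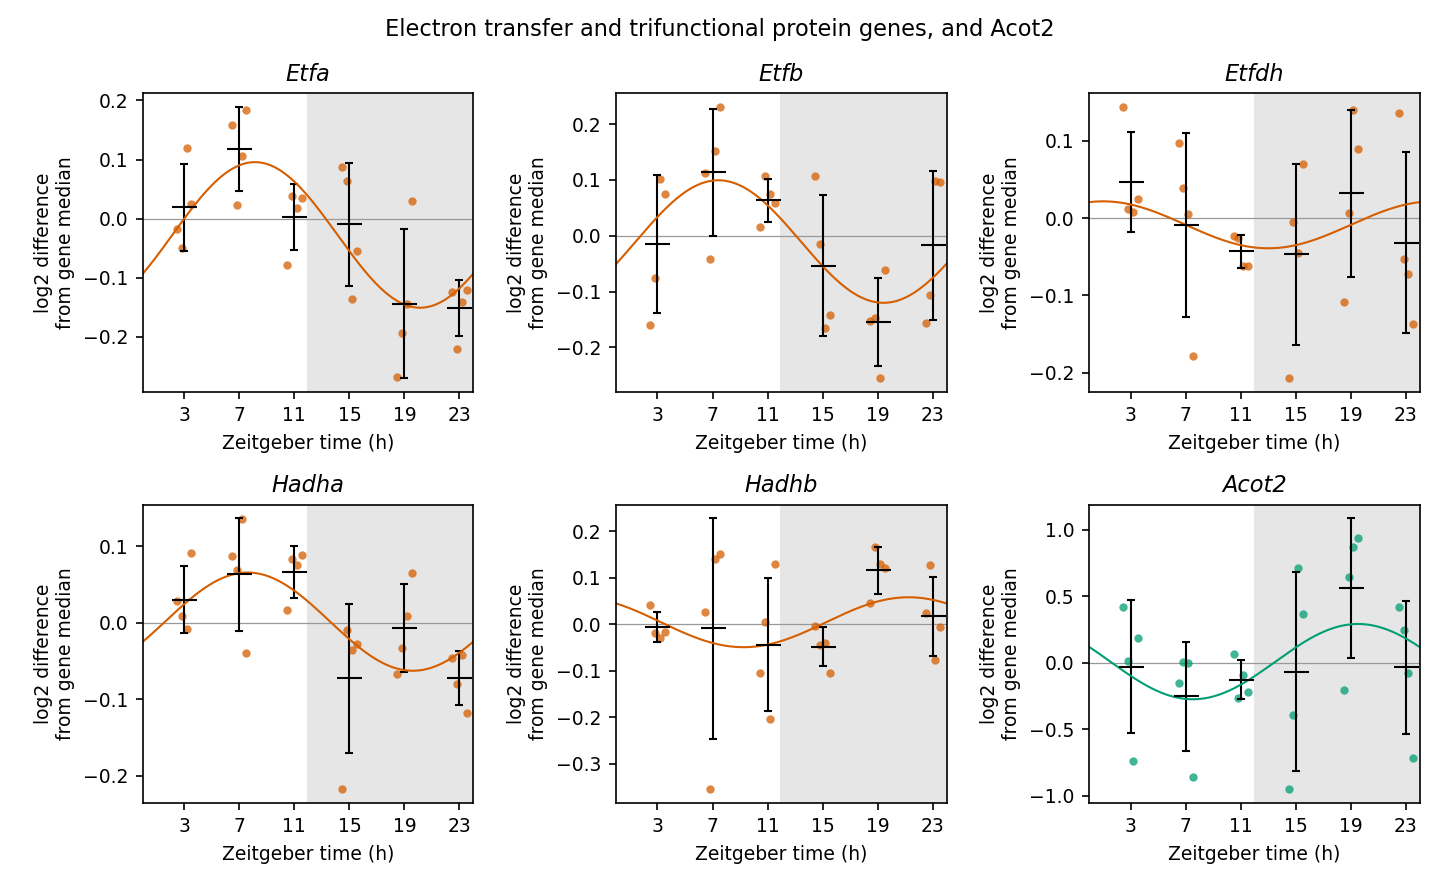
Values by zeitgeber time (h) of the electron transfer genes Etfa, Etfb and Etfdh, the trifunctional protein genes Hadha and Hadhb, and the thioesterase Acot2, as log2 differences from the gene's median, drawn as points for arrays, bars for mean ± SD of 4 arrays and a fitted 24-h line. The lowest mean stands at ZT23 in Etfa and at ZT19 in Etfb (fitted peaks at ZT 8.14 and ZT 7.42), and Acot2 spans -0.95 to 0.94.

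Ucp3, a mitochondrial carrier of heart and skeletal muscle that fatty acids induce, had the largest change of the list. Its values were 1.11, 0.022, 0.30 and 0.97 (ZT03), 0.54, 0.19, 0.79 and 0.53 (ZT07) and 0.088, -0.051, 0.31 and 0.80 (ZT11). At night Ucp3 had -0.44, -0.39, -0.61 and -0.47 (ZT15), -0.83, -0.18, 0.44 and -0.37 (ZT19) and -0.17, -0.22, -0.022 and -0.56 (ZT23). Of the 12 dark arrays 10 were below every light array, and the exceptions were ZT19 replicate 3 and ZT23 replicate 3. The 4 arrays at ZT15 were close together (SD 0.10), while those at ZT03 and ZT19 were spread (SD 0.52 and 0.53). The fitted change was 2.11-fold (amplitude 0.54 ± 0.10, SE, adjusted p = 0.00324) with its peak at ZT 5.87 ± 0.717 h, and 0.122% of all genes had a larger fold.

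Plin5, a perilipin that ties lipid droplets to mitochondria, was low at the start of the night. It had -0.079, 0.17, 0.061 and 0.21 (ZT03), 0.14, 0.29, 0.054 and -0.075 (ZT07) and 0.038, -0.25, -0.11 and 0.13 (ZT11). Its night values were -0.15, -0.26, -0.25 and -0.062 (ZT15), -0.082, -0.029, -0.082 and -0.031 (ZT19) and 0.029, 0.15, 0.27 and 0.076 (ZT23). All 4 ZT23 arrays lay above all 4 arrays at ZT15 and at ZT19. The fitted change was 1.22-fold (amplitude 0.15 ± 0.033, SE, adjusted p = 0.0170) with a peak at ZT 2.86 ± 0.866 h. That fitted peak is in the light, but the highest mean stood in the dark, at ZT23 (0.13). Plin5 was not called for any difference among the times (adjusted p = 0.0965, limma) or for night minus day (adjusted p = 0.411, limma).

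The thioesterases, which free fatty acids from coenzyme A, were not called. Acot1, the cytosolic form, had 0.082, 0.050, 0.11 and 0.45 (ZT03), 0.13, -0.27, 0.13 and -0.055 (ZT07) and -0.12, 0.012, -0.17 and -0.12 (ZT11). Acot1 values at night were -0.17, -0.024, -0.012 and 0.016 (ZT15), -0.024, -0.18, 0.057 and 0.090 (ZT19) and 0.51, 0.42, -0.26 and -0.30 (ZT23). High values of Acot1 stood at ZT03 replicate 4 and at 2 of 4 arrays of ZT23, while the 3 lowest values were the other 2 arrays of ZT23 and ZT07 replicate 2. Acot2, the mitochondrial form, had 0.42, 0.011, -0.74 and 0.19 (ZT03), -0.15, 0.0038, -0.0038 and -0.86 (ZT07) and 0.063, -0.26, -0.089 and -0.22 (ZT11). Acot2 values at night were -0.95, -0.39, 0.71 and 0.37 (ZT15), -0.21, 0.64, 0.87 and 0.94 (ZT19) and 0.42, 0.24, -0.074 and -0.72 (ZT23). Its range was the second widest of the 32 members and 3 of 4 arrays at ZT19 were at 0.64 or above, but low arrays stood at 4 of the 6 times. Acot2 had a fitted fold of 1.48 (adjusted p = 0.431) and an SD of 0.51 between arrays of a time, the widest of the list. The fitted fold was 1.18 for Acot1 (adjusted p = 0.420) and 1.09 for Acot13 (adjusted p = 0.585), whose values ranged from -0.38 to 0.19. The within-array difference of Acot1 minus Acot2 had a 24-h amplitude of 0.30 (permutation test with 100000 resamples, p = 0.116, adjusted over 2 pairs p = 0.116), and without ZT15 replicate 1 it was 0.37 (adjusted p = 0.0495). Acot1 and Acot2 are close relatives, and how far their probe sets share signal was not tested.

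Night (ZT15, ZT19 and ZT23) was compared with day (ZT03, ZT07 and ZT11), 12 arrays each. Of the 32 members 4 were called, or 12.5%, where 4.39% of all genes were, and all 4 were lower at night, as were 2.49% of all genes, while 1.89% of all genes and no member were higher. Ucp3 averaged -0.32 ± 0.32 at night and 0.47 ± 0.38 by day (SD, n = 12 each), a log2 difference of -0.78 ± 0.14 (SE, adjusted p = 0.00146, limma). Cpt1a averaged -0.21 ± 0.22 at night and 0.22 ± 0.18 by day (log2 difference -0.43 ± 0.071, adjusted p = 0.000879), and 12 of 12 night arrays were below the day median. The smaller calls were Etfa (-0.15 ± 0.034, adjusted p = 0.0121) and Hadha (-0.10 ± 0.026, adjusted p = 0.0228). Over all members the night minus day difference was below 0 in 21 of 32, and over all genes in 10668 of 22180. The median was -0.035 in the members and 0.0021 in all genes. Without ZT15 replicate 1 there were 7 calls, and over all genes there were 1243, where 973 were called with every array.

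Dusk (ZT11 and ZT15) differed from dawn (ZT23 and ZT03) in 3 members, 9.38%, where 3.76% of all genes were called (2.06% as higher and 1.7% as lower). Slc27a1 was higher at dusk (log2 difference 0.24 ± 0.068, SE, adjusted p = 0.0471), while Angptl4 (-0.61 ± 0.15, adjusted p = 0.0222) and Plin5 (-0.22 ± 0.058, adjusted p = 0.0288) were lower. Leaving out a single array ended the Slc27a1 call in 20 of 24 cases (largest adjusted p = 0.110), the exceptions being ZT11 replicate 1, ZT19 replicate 1, ZT19 replicate 4 and ZT23 replicate 1. The Plin5 call was lost without any of 8 arrays, namely ZT03 replicates 2 and 4, ZT11 replicates 2 and 3, ZT15 replicates 2 and 3, and ZT23 replicates 2 and 3 (adjusted p up to 0.0701). The Angptl4 call was lost without ZT23 replicate 1 or ZT23 replicate 2 (adjusted p up to 0.0535). Without ZT23 replicate 2 no member was called for dusk against dawn, and without any of the other 7 arrays that end the Plin5 call 1 was.

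Between ZT19 and ZT07, opposite times of the night and the day, 1 member (3.13%) was called, where 1.59% of all genes were (0.888% as higher and 0.703% as lower). Etfa averaged -0.14 ± 0.13 (SD, n = 4) at ZT19 and 0.12 ± 0.071 at ZT07 (log2 difference -0.26 ± 0.059, SE, adjusted p = 0.0242). That call was lost without ZT07 replicate 1, 3 or 4 or ZT19 replicate 1, 2 or 3 (adjusted p up to 0.0880). The count was 0 without ZT07 replicate 1, 3 or 4 or ZT19 replicate 1 or 2, and 3 without ZT15 replicate 1. It was 2 without ZT03 replicate 2 or 4, ZT07 replicate 2, ZT19 replicate 3, or ZT23 replicate 1, 2 or 4. Over all genes 353 were called with every array, 465 without ZT15 replicate 1 and 168 without ZT07 replicate 4. Next to Etfa stood Cpt1a (-0.48 ± 0.12, adjusted p = 0.0521) and Etfb (-0.27 ± 0.073, adjusted p = 0.0712). Ucp3 had the largest difference of the 5 rhythmic members (-0.75 ± 0.24) but an adjusted p of 0.130, with ZT19 values from -0.83 to 0.44.

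A test of any difference among the 6 times called 4 members, Cpt1a (adjusted p = 0.00552), Ucp3 (adjusted p = 0.0179), Etfa (adjusted p = 0.0304) and Angptl4 (adjusted p = 0.0450), or 12.5%, where 4.72% of all genes were called. Leaving out a single array ended the Angptl4 call in 20 of 24 cases (largest adjusted p = 0.134), the exceptions being ZT03 replicate 2, ZT07 replicate 2, ZT23 replicate 1 and ZT23 replicate 4. The Etfa call was lost without ZT07 replicate 1, 3 or 4, ZT19 replicate 2 or 3, or ZT23 replicate 2 or 3 (adjusted p up to 0.0717), and the count was then 2. The Ucp3 call was kept without each single array, and it was lost without ZT07 replicate 4, ZT15 replicate 1 and ZT23 replicate 4 together (adjusted p = 0.0686).

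Markers of the cell types in heart tissue were read on the same arrays. Of all genes 7.61% had a 24-h rhythm, 1.89% were called as higher at night and 2.49% as lower. Of 10 ventricular cardiomyocyte markers 9 had a night minus day difference below 0 (median -0.053), as had 10668 of all 22180 genes. Among the 10, Ryr2 and Ttn were called as lower at night. Ryr2 and Ttn also had a 24-h rhythm (adjusted p = 0.00910 and adjusted p = 0.00802, limma), with peaks at ZT 5.53 and ZT 5.72. The mean of the 10 markers per array ran from -0.063 to 0.034 at night and from -0.044 to 0.078 by day. It averaged -0.034 at night and 0.030 by day, in the same direction as Cpt1a, Ucp3, Etfa and Hadha. The night minus day log2 differences of these genes were -0.43, -0.78, -0.15 and -0.10. The mean of 6 atrial markers ran from -0.17 to 0.67 at night and from -0.24 to 0.34 by day, and none was called. The mean of 7 adipocyte markers ran from -0.075 to 0.098 at night and from -0.035 to 0.047 by day, and 1 of them, the lipase Lipe, was called as lower at night (adjusted p = 0.0481). For 4 brown adipocyte markers it ran from -0.065 to 0.036 at night and from -0.087 to 0.091 by day. The 10 endothelial markers ran from -0.12 to 0.22 at night and from -0.095 to 0.17 by day, and 1 of them, Gpihbp1, had a 24-h rhythm (adjusted p = 0.000290, limma). The part of the markers in the results was not tested, and the values are centred so that no marker can be placed at 0. In whole tissue fewer cells of a type and less RNA per cell cannot be told apart. The 8 macrophage markers held the most calls, with 6 rhythms, 4 genes called as higher at night and means of -0.066 to 0.35 at night and -0.36 to 0.076 by day. The 8 skeletal muscle markers (none called) had means of -0.074 to 0.12 at night and -0.028 to 0.11 by day. Means of the 6 fibroblast markers were -0.14 to 0.089 at night and -0.23 to 0.12 by day. Of these 6, 2 had a rhythm, and 1 was called in each direction for night minus day.

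Related genes outside the 35 were counted in 9 lists. Of 105 measured genes 20 had a 24-h rhythm (12 with a peak in the light, 8 in the dark), with a median fitted fold of 1.09, where 7.61% of all genes had a rhythm and 3.83% one with a peak in the light. Of the 20 calls 7 came from the list of 16 regulators. The lists are small, and a single call in a list of 12 or 15 genes is near the share of all genes. In capillary and uptake genes 3 of 12 were called. Gpihbp1, which holds lipoprotein lipase on the capillary wall, peaked at ZT 11.9 with a 1.39-fold change (adjusted p = 0.000290, limma). Fabp4, a fatty acid binding protein of capillaries and adipocytes, peaked at ZT 11.7 (1.27-fold), and the lipoprotein receptor Vldlr 1.16-fold at ZT 5.97. None of 8 genes of wider acyl-CoA activation was called.

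Peroxisomal oxidation had 2 of 12 called, both with a fitted peak in the light, where 3.83% of all genes were called with such a peak. Ehhadh, the peroxisomal bifunctional enzyme and a PPAR-alpha target, peaked at ZT 5.63 (1.31-fold, adjusted p = 0.0153), and Abcd3, a peroxisomal importer, 1.17-fold at ZT 8.35. Of the 13 genes of other mitochondrial oxidation, Acad10 (1.28-fold, ZT 14.7) and the propionyl-CoA carboxylase subunit Pccb (1.21-fold, ZT 8.43) were called. Of 12 droplet and lipolysis genes only the perilipin Plin4 was (1.28-fold, ZT 15.1, adjusted p = 0.00730), while Plin2 (1.09-fold, adjusted p = 0.581) was not.

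Among 16 regulators 7 were called for the rhythm, where 7.61% of all genes were. Pdk4, Nr1d1, Nr1d2 and Klf15 were called as lower at night, as were 2.49% of all genes. The largest fitted folds of this list were those of Nr1d1 (5.52-fold, ZT 7.56) and Nr1d2 (3.46-fold, ZT 10.5). Pdk4, the kinase that turns off pyruvate dehydrogenase and so spares glucose, peaked at ZT 5.25 with a 2.94-fold change, beside Ucp3 at ZT 5.87 and Angptl4 at ZT 3.23. Ppara changed with an amplitude of 0.13 (log2) and a peak at ZT 14.0 (adjusted p = 0.0110), Rxrg 1.22-fold at ZT 23.3 and Esrrg 1.17-fold at ZT 0.659. Ppargc1a, the coactivator PGC-1-alpha, was not called (1.18-fold, adjusted p = 0.206).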

How the data were processed

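Mouse hearts from 6 times of day, 4 arrays each, were measured on Affymetrix arrays from 500 ng of total RNA, per the labels' protocols. The deposited values were read as log2 differences from each probe set's median over the 24 arrays, since that median is 0 within 5e-07. No source used here states the log base, the normalization or the direction of the scale, and base 2 was assumed. Of 34351 probe sets 23521 name 1 gene, 1814 name several and 9016 none in the platform annotation. Only those with 1 gene were used, averaged to 22180 genes, and no column of unknown sample was found. Arrays give no read depth, so their number limits the precision.

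limma 3.58.1 (R 4.3.3) fitted the 6 time means (18 residual degrees of freedom), a 24-h cosine, and the contrasts, with Benjamini-Hochberg adjustment over all genes and a threshold of 0.05. The labels do not say that replicates came from separate mice, so p-values measure the spread between these samples. The cosine model was tested on simulated data with 200 changed genes. Isoform pairs were tested by permutation. Members, lists and isoform pairs were chosen with earlier results of these data known. Values of every array are given for the 8 members of smallest rhythm p and for the isoform pairs, and the other members by their range. Alternatives were quantile normalization, scaling, array weights, robust empirical Bayes, other handling of probe sets, protein-coding genes only, a replicate block, and arrays left out. Promoters are RefSeq's (GRCm38.p6), matched by symbol for 26 of the measured members.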

Additional observations from a re-analysis of the deposited data

Results flagged for a closer look

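Single arrays stood apart from the other 3 of their time in 19 of 192 member and time groups (9.90%), by a gap that takes most of the group's range (Dixon's test), and chance gives about 1 in 20. Values are log2 differences from the gene's median. At ZT07, replicate 4 stood low for Crat (-0.29), Acadl (-0.21), Acadm (-0.19) and Acot13 (-0.38), and replicate 3 stood apart for Slc25a20 (0.17). At ZT19, replicate 1 stood low for Cd36 (-0.11), Cpt2 (-0.031), Slc25a20 (-0.18) and Acadl (-0.11). At ZT15, replicate 1 stood apart for Crat (-0.099) and Hadha (-0.22), and replicate 4 for Eci1 (0.014).

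At ZT03, replicate 1 stood apart for Eci1 (-0.14) and Etfdh (0.14), replicate 2 for Eci2 (-0.20), and replicate 4 for Acaca (0.019) and Acot1 (0.45). Fabp3 had an array apart at ZT11 (replicate 1, 0.15) and at ZT23 (replicate 1, 0.17). None of the 5 members with a 24-h rhythm was among them.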

How the results depend on the processing

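The 5 rhythmic members were called in all 33 alternatives. Each of the 5 has 1 probe set, so other handling of probe sets could not change its values, nor could keeping only protein-coding genes. Against 1 member called for ZT19 minus ZT07, there were 2 under quantile normalization, 2 under scaling to the same median absolute deviation, 2 with array weights, 2 with protein-coding genes only and 0 without ZT07 replicate 4, ZT15 replicate 1 and ZT23 replicate 4 together. Core enzymes with a rhythm, 1 in the results above, were 2, 2 and 2 under the first 3 of these and 3 without the 3 arrays, where any difference among the times was called in 1 member. The causes were not tested.

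Leaving out each array in turn gave 5 to 8 rhythmic members, 2 to 5 for any difference, 4 to 7 for night minus day, 0 to 3 for dusk minus dawn and 0 to 3 for ZT19 minus ZT07. It gave 2 to 4 entry genes and 1 to 3 core enzymes. Over all genes it gave 1445 to 1829 rhythms, 895 to 1134 for any difference, 765 to 1243 for night minus day, 697 to 884 for dusk minus dawn and 168 to 465 for ZT19 minus ZT07. Amplitudes were 0.24 to 0.37 for Acot1 minus Acot2 and 0.078 to 0.11 for Acaca minus Acacb.

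Arrays of the same replicate number did not deviate together (mean r = -0.014 over 60 pairs of arrays, 5 of them over 0.1, and 6 of 24 arrays correlated best with their own number). With the replicate block 1576 genes and 5 members had a rhythm, 3 members any difference, 4 night minus day, 2 dusk minus dawn and 1 ZT19 minus ZT07. The block ended the Angptl4 call for any difference (adjusted p = 0.0631, limma) and the Slc27a1 call for dusk minus dawn (adjusted p = 0.0622, limma). Slc27a1 at dusk minus dawn also missed the threshold under scaling (0.0505) and robust empirical Bayes (0.0501). Of 759 values for single genes 667 stayed on the same side of the threshold, 73 lost the call and 19 gained it. None of the contrasts changed sign, while amplitudes and F values are never negative and so could not. The pairs Cpt1a minus Cpt1b and Ucp3 minus Ucp2 were not run, since only 1 gene of each was measured. Signal over background is not known from centred values.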

Other observations

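Other genes near fatty acid use, counted above but not named there, included Slc16a1, the monocarboxylate transporter that carries ketone bodies and lactate. It changed 1.30-fold over the day with a peak at ZT 18.7 (adjusted p = 0.000318, limma) and was higher at night (log2 difference 0.24, adjusted p = 0.00114). Of 14 genes of malonyl-CoA control and the AMP-activated kinase 3 had a rhythm, where 7.61% of all genes had one. Mid1ip1, a binding partner that promotes acetyl-CoA carboxylase activity, changed 1.28-fold with a peak at ZT 14.5 (adjusted p = 2.14e-05). The kinase subunits Prkag1 (1.12-fold, ZT 7.55) and Prkaa2 (1.25-fold, ZT 23.6) peaked at different times. Among 15 other thioesterase and uncoupling genes the thioesterase Them4 was called (1.25-fold, ZT 21.3, adjusted p = 0.0297).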
